A study of Homo sapiens with 8 samples.

Results

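The genes described here are 10 components of the insulin-like growth factor (IGF) system, taken by symbol from the 26475 genes of the deposited count table: the receptor genes IGF1R, INSR and IGF2R, the adaptor genes IRS1 and IRS2, and the binding protein genes IGFBP2, IGFBP3, IGFBP4, IGFBP5 and IGFBP6. All 10 were found in the table. RNA had been sequenced from BT474, an established line of human breast cancer cells in which ERBB2 is amplified. Per the labels, 4 libraries came from NPY1R high cells and 4 from NPY1R low cells, NPY1R being the gene of the neuropeptide Y receptor Y1. All 8 libraries share the cell line and a plating density below confluence. The labels enter high and low under genotype, do not say how the cells were obtained or whether a group is 1 clone, and name no drug for these libraries, although the series title concerns cells that tolerate lapatinib. They also do not say whether replicates were separate cultures, so p-values measure the spread between these libraries only.

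IGF-I and IGF-II bind the tyrosine kinase receptor encoded by IGF1R, which passes the signal on by phosphorylating IRS adaptors, and these in turn recruit phosphoinositide 3-kinase. The insulin receptor, encoded by INSR, is its close relative, and the IGF2R product clears IGF-II without a kinase domain. Binding proteins hold IGFs outside the cell and limit or prolong their action. In breast cancer cells with estrogen receptor, estrogen is known to raise transcripts of this system, IRS1 and IGFBP4 among them.

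Total expected counts ranged from 18025648 to 30609791 per library, and of the 26475 genes 14008 had enough counts to be tested. NPY1R itself had 17256 to 28986 counts in the NPY1R high libraries and 2028 to 2709 in the NPY1R low libraries, in the direction of the labels. Of 9 luminal epithelial markers, all were tested. At the threshold given below, 2 were called higher in NPY1R high (GATA3 and ESR1) and 2 lower (EPCAM and FOXA1), where 13.6% of all tested genes were called. The 9 markers summed to 7448 to 8538 CPM (counts scaled to a common library size) in NPY1R high and 7350 to 9577 CPM in NPY1R low. Of the basal epithelial markers TP63 had 126 to 188 counts per library and KRT14 none, and of the immune markers CD68 had 16 to 59 counts and CD3E none.

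Of the 9 members that could be tested, 5 were higher in NPY1R high, and no member was called lower. IGFBP3 rose by the largest amount, about 8.07-fold, followed by IRS1 at 2.24-fold, IGFBP4 at 1.48-fold and IGF1R at 1.32-fold, and IGFBP5 rose by a log2 of 0.38. INSR, IGF2R, IRS2 and IGFBP2 did not pass the threshold, a Benjamini-Hochberg adjusted p of 0.05 over all tested genes in edgeR's quasi-likelihood test. Among all 14008 tested genes, 13.6% passed, 5.78% higher and 7.81% lower in NPY1R high. The same 5 members were also those whose libraries did not overlap in CPM between the groups, which held for 20.2% of all tested genes. The 9 tested members had a median log2 fold change of 0.38, and the median over all tested genes was -0.03. Since the genes were proposed with earlier results of these data known, their share is a description only. Among all calls 42.5% were higher with the scaling used here and 56.3% with upper-quartile scaling. The 5 member rises were called under all 4 scalings run. In such bulk RNA, a change in the number of cells that hold a transcript and a change in its amount per cell cannot be told apart.

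**Figure D1:**
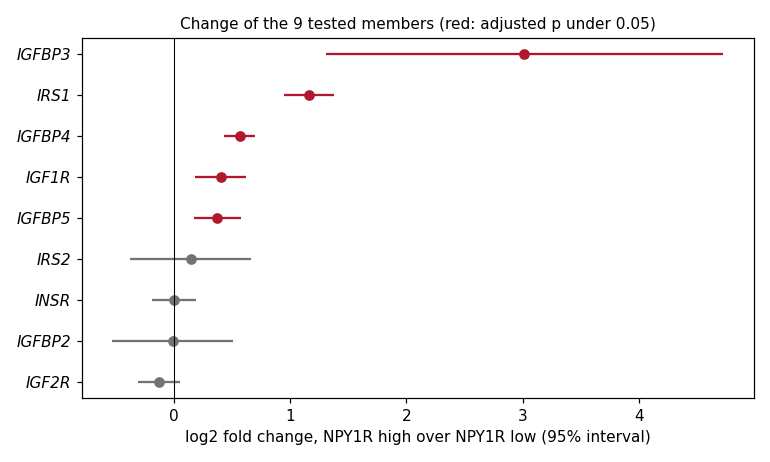
Log2 fold change of the 9 tested members (horizontal axis, NPY1R high over NPY1R low), with 95% intervals from edgeR's quasi-likelihood fit over 4 libraries a group. IGFBP3 sits farthest to the right with the widest interval (1.31 to 4.72), and IRS1, IGFBP4, IGF1R and IGFBP5 lie above 0, while the intervals of the other 4 cross 0.

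The upstream sequences of the 3 members with the largest changes, IGFBP3, IRS1 and IGFBP4, are shown with that of IRS2, the paralog of IRS1 that did not pass the test. Each is the 250 bases before the RefSeq start of the gene (GRCh38.p14), 5′ to 3′ on the gene's own strand. Capitals mark the GC box GGGCGG and the TATA box TATAAA, each searched on both strands, so a GC box on the other strand reads CCGCCC.
IRS1: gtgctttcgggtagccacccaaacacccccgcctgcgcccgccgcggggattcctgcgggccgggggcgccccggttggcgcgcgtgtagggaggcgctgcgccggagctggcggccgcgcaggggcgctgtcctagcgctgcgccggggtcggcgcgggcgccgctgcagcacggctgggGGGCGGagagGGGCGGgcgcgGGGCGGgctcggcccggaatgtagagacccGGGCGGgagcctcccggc
IRS2: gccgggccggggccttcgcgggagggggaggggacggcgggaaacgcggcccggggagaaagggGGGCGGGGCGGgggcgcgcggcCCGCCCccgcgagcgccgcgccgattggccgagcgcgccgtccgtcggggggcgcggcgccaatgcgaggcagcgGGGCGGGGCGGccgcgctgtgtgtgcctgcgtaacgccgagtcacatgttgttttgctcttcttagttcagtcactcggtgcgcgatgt
IGFBP3: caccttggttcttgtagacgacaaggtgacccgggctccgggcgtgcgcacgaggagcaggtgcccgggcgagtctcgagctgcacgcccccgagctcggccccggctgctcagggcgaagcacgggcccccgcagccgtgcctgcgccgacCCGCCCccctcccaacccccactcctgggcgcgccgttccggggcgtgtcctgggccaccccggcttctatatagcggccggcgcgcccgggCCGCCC
IGFBP4: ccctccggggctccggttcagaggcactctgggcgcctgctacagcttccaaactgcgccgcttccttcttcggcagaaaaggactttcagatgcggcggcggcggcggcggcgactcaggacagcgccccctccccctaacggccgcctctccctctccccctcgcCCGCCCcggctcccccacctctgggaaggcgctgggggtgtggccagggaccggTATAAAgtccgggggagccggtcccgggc

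The IRS1 stretch lies at chr2:226799821-226800070 on the minus strand and held 4 GC boxes. The IRS2 stretch, at chr13:109786584-109786833 on the minus strand, held 5, some of them overlapping. The IGFBP3 stretch (chr7:45921273-45921522, minus strand) held 2, and the IGFBP4 stretch (chr17:40443200-40443449, plus strand) held 1 GC box and 1 TATA box starting 29 bases before the gene. A GC box occurred in 42.6% of the 35116 RefSeq stretches of the same length, and a TATA box in 10.7%. The estrogen response element, GGTCA and TGACC with 3 bases of any kind between them, was in 0.04% of all stretches and in none of the 10 members. The longer half-site AGGTCA, an arm of that element with an A before it, was searched on either strand. It was found in 12.1% of all stretches and, among the members, in that of IGFBP2 only, which was not called. The forkhead motif TGTTTAC was in 2.98% of all stretches and, among the members, in that of IGFBP6 only. The cAMP response element TGACGTCA, present in 1.65%, was in none of the members. IRS1 and IRS2 stretches had similar base composition, with 80.8% and 76.4% G or C against a median of 58.0% over all stretches. Only the exact letters given were searched, so near matches, such as tatata in the IGFBP3 stretch, are not marked or counted. These are letter matches in a short window and say nothing of binding.

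**Figure D2:**
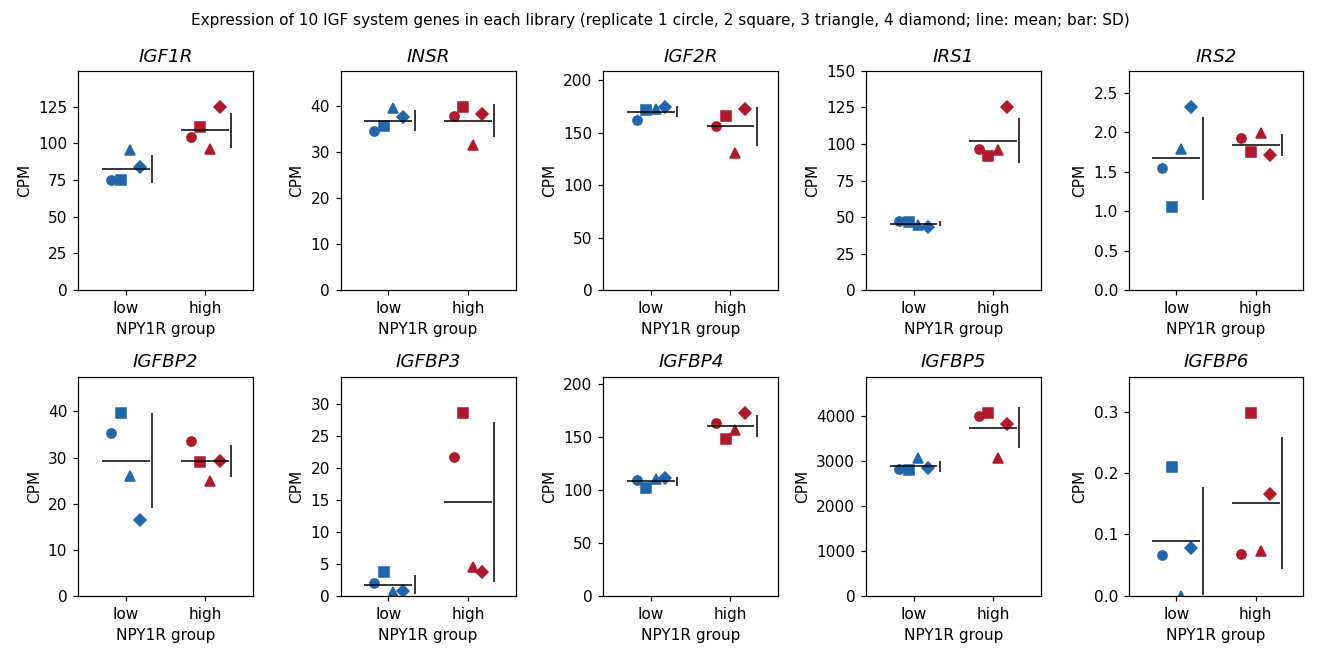
CPM of each of the 10 members (vertical axes from 0) in the 4 NPY1R low libraries (blue) and the 4 NPY1R high libraries (red), with the mean as a line and the SD as a bar. IRS1 and IGFBP4 separate widely, IGF1R and IGFBP5 separate with a narrow gap, and IGFBP3 is spread over a wide range in both groups.

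Among the receptors, IGF1R rose and the other receptors did not pass. IGF1R (chromosome 15, 98648539 to 98964530) had 104, 111, 96.3 and 125 CPM in NPY1R high replicates 1 to 4 and 75.1, 75.2, 95.1 and 84.2 CPM in NPY1R low replicates 1 to 4. The groups did not overlap, but the lowest NPY1R high library and the highest NPY1R low library, both replicate 3, lay close together. The means were 109 ± 11.9 and 82.4 ± 9.51 CPM (SD, n = 4 each). The log2 fold change was 0.40 (SE 0.10, edgeR adjusted p 0.0214). The call was lost without NPY1R high replicate 2 (edgeR adjusted p 0.0580), NPY1R low replicate 1 (0.0537) or NPY1R low replicate 2 (0.0566). IRAIN, a long non-coding RNA gene that overlaps IGF1R, had 12.2 to 34.2 expected counts per library. The overlapping genes LOC124903560 and LOC124903561 were not in the count table. Whether the counting used strand is not given in the sources used here. How many reads of these overlapping genes were counted under IGF1R is therefore not known.

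INSR (chromosome 19, 7112265 to 7294414) had nearly equal means, 36.9 ± 3.57 and 36.9 ± 2.28 CPM (SD, n = 4 each). Its libraries had 37.8, 39.8, 31.7 and 38.3 CPM in NPY1R high and 34.5, 35.6, 39.7 and 37.6 CPM in NPY1R low. Its estimated log2 change was 0.0011, with a 95% interval from -0.19 to 0.19. The upper end of this interval was 0.191, and the 95% interval of IGF1R was 0.186 to 0.623. The intervals of these receptors therefore overlap slightly, and the difference between their changes was not tested.

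IGF2R (chromosome 6, 159969082 to 160111504) had 156, 166, 130 and 172 CPM in NPY1R high and 162, 172, 173 and 174 CPM in NPY1R low. NPY1R high replicate 3 was the lowest of the 8 libraries for both IGF2R and INSR. The log2 fold change of IGF2R was -0.12 (95% interval -0.31 to 0.06, edgeR adjusted p 0.394).

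Receptor ratios within a library do not depend on how libraries were scaled. Per kilobase of the longest coding transcript, the log2 ratio of IGF1R to INSR was 1.01, 1.03, 1.15 and 1.25 in NPY1R high and 0.67, 0.63, 0.81 and 0.71 in NPY1R low. Every NPY1R high library was above every NPY1R low library. The mean log2 ratio was higher by 0.41 in NPY1R high, which is a ratio 1.33 times as high. For IGF1R to IGF2R the mean log2 ratio was higher by 0.54, a ratio 1.45 times as high, again without overlap between the groups. Of the 4 ratios computed, that of IGFBP4 to IGFBP5 overlapped, with a mean log2 difference of 0.20.

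Of the adaptors, IRS1 rose and IRS2, its scarcer relative, did not pass. IRS1 (chromosome 2, 226731312 to 226799820) had 96.5, 92.0, 95.6 and 125 CPM in NPY1R high and 47.5, 46.3, 44.8 and 43.4 CPM in NPY1R low. All NPY1R high libraries were far above the NPY1R low libraries, which lay within a narrow range. The means were 102 ± 15.3 and 45.5 ± 1.75 CPM (SD, n = 4 each). IRS1 rose by a log2 of 1.17 (SE 0.10, edgeR adjusted p 4.37e-05), and was 99th of all 14008 tested genes by p. Its change was 1.01 within replicates 1 and 2 and 1.32 within replicates 3 and 4.

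IRS2 (chromosome 13, 109752695 to 109786583) had 56, 47, 55 and 31 counts in NPY1R high and 46, 30, 39 and 59 in NPY1R low. The groups overlapped. The log2 fold change was 0.15 (SE 0.23, edgeR adjusted p 0.762). Its 95% interval, -0.37 to 0.67, lies wholly below that of IRS1, 0.95 to 1.38, which is a description of separate intervals and not a test of their difference. The log2 ratio of IRS1 to IRS2 per kilobase was 5.38, 5.45, 5.32 and 5.92 in NPY1R high and 4.67, 5.18, 4.38 and 3.96 in NPY1R low. These ratios did not overlap between the groups. The mean log2 ratio was higher by 0.97 in NPY1R high, which is a ratio 1.95 times as high.

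IGFBP5, whose product binds IGFs and the extracellular matrix, was by far the most abundant member. It ranked between 9th and 14th of all genes by counts in every library and took 0.380% ± 0.0502 of the counts in NPY1R high and 0.285% ± 0.0132 in NPY1R low (SD, n = 4 each). IGFBP5 (chromosome 2, 216672105 to 216695549) had 4001, 4069, 3073 and 3838 CPM in NPY1R high and 2834, 2802, 3068 and 2841 CPM in NPY1R low. As for IGF1R, the groups nearly touched at replicate 3. IGFBP5 rose by a log2 of 0.38 (SE 0.09, edgeR adjusted p 0.0211). The call was lost without NPY1R high replicate 1 (edgeR adjusted p 0.0654), NPY1R high replicate 2 (0.0644) or NPY1R low replicate 2 (0.0532). IGFBP5 made up 94.3% to 95.7% of the counts of IGFBP2 to IGFBP6, which are not corrected for transcript length. The summed CPM of these genes therefore followed IGFBP5, at 3259 to 4275 CPM in NPY1R high and 2947 to 3205 CPM in NPY1R low. The long non-coding RNA genes IGFBP-AS1 and LOC124900515 overlap IGFBP5 and were not in the count table, so their reads were not counted separately.

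IGFBP4, whose product holds IGFs and restrains their access to the receptor, had the smallest standard error of the 9 tested members. It lies on chromosome 17 at 40443450 to 40457725. It had 163, 148, 156 and 172 CPM in NPY1R high and 109, 102, 110 and 111 CPM in NPY1R low. The groups were well apart, with a coefficient of variation of 6.40% and 3.97% within them. The rise was a log2 of 0.57 (SE 0.06, edgeR adjusted p 0.000183). The change was 0.56 within replicates 1 and 2 and 0.57 within replicates 3 and 4.

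IGFBP3, the main IGF carrier of the blood, had the largest change of the members and the widest spread. It lies on chromosome 7 at 45912245 to 45921272. It had 632, 767, 123 and 68 counts in NPY1R high and 62, 106, 12 and 19 in NPY1R low, that is 21.7, 28.5, 4.45 and 3.74 CPM against 2.08, 3.71, 0.549 and 0.746 CPM. The groups did not overlap, but NPY1R high replicate 4 and NPY1R low replicate 2 were nearly equal in CPM. In both groups replicates 1 and 2 were above replicates 3 and 4, by a log2 of 2.62 in NPY1R high and 2.16 in NPY1R low. Averaged over the groups on the log2 CPM scale, this difference of 2.29 was the 8th largest of 14008 tested genes. The labels give no batch, so what sets these replicates apart was not tested.

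IGFBP3 rose by a log2 of 3.01 (SE 0.76, edgeR adjusted p 0.0262). Within replicates 1 and 2 the change was 3.12, and within replicates 3 and 4 it was 2.66, so the contrast between the groups was large in each. A fit that also held a term separating replicates 1 and 2 from 3 and 4 gave a change of 2.98 (edgeR adjusted p 5.35e-06). The labels do not give this split, which is the pattern seen in the IGFBP3 values themselves. The smaller p of that fit is therefore a description and not separate support for the rise. Without that term the call was lost in limma-voom (adjusted p 0.0917). It was also lost in edgeR's quasi-likelihood test without NPY1R high replicate 1 (0.0647), NPY1R high replicate 2 (0.0749), NPY1R low replicate 1 (0.0617) or NPY1R low replicate 3 (0.0786).

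**Figure D3:**
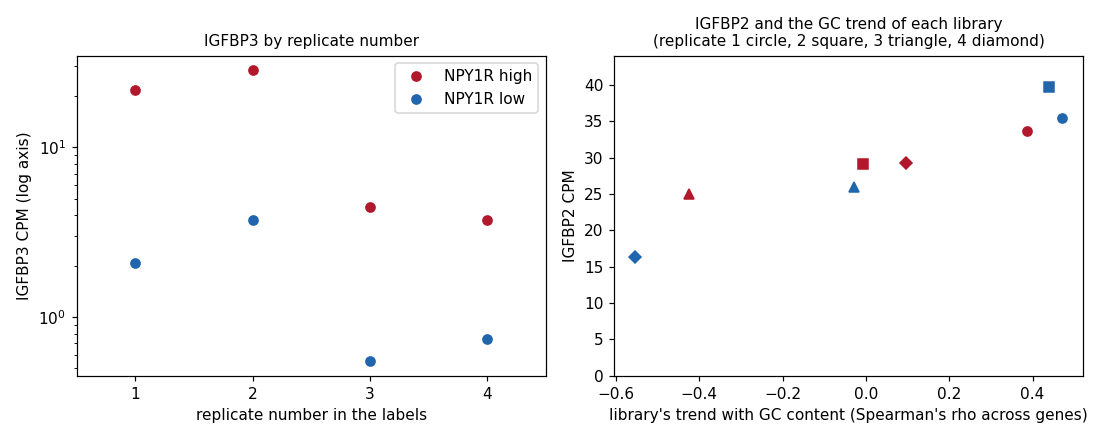
Left, IGFBP3 in CPM on a log axis by replicate number, with NPY1R high in red and NPY1R low in blue. Right, IGFBP2 in CPM against each library's trend with transcript GC content. NPY1R high lies above NPY1R low at each replicate number for IGFBP3, while IGFBP2 is lowest in the 2 libraries with the most negative GC trend.

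IGFBP2 lies beside IGFBP5 on chromosome 2 (216632828 to 216664436), with 7668 bases between them, and did not pass. It had 33.6, 29.1, 25.0 and 29.2 CPM in NPY1R high and 35.4, 39.6, 25.9 and 16.4 CPM in NPY1R low. NPY1R low libraries lay both above and below all NPY1R high libraries, and the estimated log2 change was -0.0087 (95% interval -0.53 to 0.51). The transcript of IGFBP2 had the highest GC content of the members, 67.7%. The trend of each library with GC content, as Spearman's rho over genes of its departure from the mean of the libraries, was 0.387, -0.0079, -0.424 and 0.0965 in NPY1R high and 0.471, 0.440, -0.0292 and -0.553 in NPY1R low. With each library's GC trend removed, the SE of IGFBP2 was 0.067 in place of 0.23, and the estimate was 0.06 (edgeR adjusted p 0.605). The same correction widened the SE of IGFBP4 from 0.06 to 0.17, with a log2 fold change of 0.56 and an edgeR adjusted p of 0.0347.

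IGFBP6, whose product prefers IGF-II, had 2, 8, 2 and 3 counts in NPY1R high and 2, 6, 0 and 2 in NPY1R low (chromosome 12, 53097667 to 53102340). These counts were too few for the filter. The count of 0 in NPY1R low replicate 3 allows up to 3 counts, or 0.136 CPM by library total. Without a filter the log2 fold change of IGFBP6 was 0.69 (SE 0.80, edgeR adjusted p 0.680), so only a large difference could have passed at this depth. Such limits cover counting error only.

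Per kilobase of the longest coding transcript in GENCODE release 29, IGFBP5 stood first in NPY1R low at 464 ± 19.7 CPM per kilobase (SD, n = 4). IGFBP4 followed at 49.1 ± 1.95, then IGFBP2 at 20.4 ± 7.21 and IGF2R at 12.1 ± 0.398, and the last pair overlapped between libraries. Next came IGF1R at 6.73 ± 0.777, IRS1 at 4.69 ± 0.181 and INSR at 4.12 ± 0.255, which did not overlap although IRS1 and INSR nearly touched. IGFBP3, IRS2 and IGFBP6 were at 0.735, 0.206 and 0.0756 CPM per kilobase, with overlap between neighbours. In NPY1R high the order changed at IRS1 (10.5 ± 1.58), which stood above IGF1R (8.91 ± 0.976), although both overlapped with each other and with IGF2R (11.1 ± 1.31) between libraries. It also changed at IGFBP3 (6.06 ± 5.16), which stood above INSR (4.12 ± 0.399), again with overlap. The transcripts actually used in these cells were not measured, so levels between genes depend on this choice of length.

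ESR1, the estrogen receptor alpha gene, and PGR, the progesterone receptor gene and a known estrogen target, were higher in the same libraries, by a log2 of 0.59 (SE 0.05) and 1.71 (SE 0.11). Their part in the member changes was not tested. Binding proteins are also expressed by fibroblasts. The fibroblast and mesenchymal marker list summed to 123 to 144 CPM in NPY1R high and 64.0 to 78.3 CPM in NPY1R low. That sum was mostly VIM, at 115 ± 10.3 and 54.2 ± 6.89 CPM (SD, n = 4 each). VIM was the 1 gene called of the 4 tested, where 13.6% of all tested genes were. COL1A1 had 266 to 496 counts and FN1 26 to 50 counts per library, and neither was called. ZEB1 had 11 to 18 counts in NPY1R high and 6 to 11 in NPY1R low (edgeR adjusted p 0.0749). COL3A1 and LUM had at most 5 counts, and COL1A2 and PDGFRB had none in any library. Any part of VIM-expressing cells in the binding protein changes was not tested.

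Over the 8 libraries, the genes whose log2 CPM followed IRS1 most closely by Pearson correlation were TGIF2 (r = 0.998), CCDC152 (0.994) and SRRM4 (0.994). Those closest to IGFBP4 were TMEM164 (0.993), CES4A (0.991) and RORB (0.990). For IGFBP3, chosen after its values were seen, they were ID4 (0.993), PARVA (0.993) and LIMCH1 (0.983). The 8 points share the difference between the groups and, for IGFBP3, that between replicates 1 and 2 and replicates 3 and 4, so high values are a description only.

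**Figure D4:**
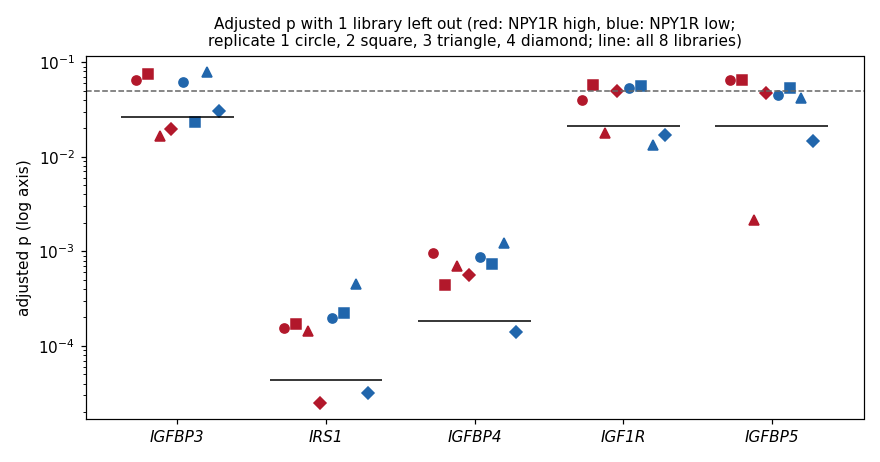
Adjusted p on a log axis for the 5 members called, with each library left out in turn (red symbols: an NPY1R high library, blue symbols: an NPY1R low library, shape: replicate number). The line is the value with all 8 libraries, and the dashed line the threshold of 0.05. IRS1 and IGFBP4 stay at 0.00124 or less, while IGFBP3, IGF1R and IGFBP5 cross the threshold in some fits.

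Of 62 other listed genes of insulin and IGF signalling 52 were tested, and 6 passed, 3 higher and 3 lower. That is 11.5%, a share near the 13.6% over all tested genes, with a median log2 fold change of -0.0088. Under each of the 3 other scalings 5 of the 52 were called higher and 2 lower. Beside these, 1803, 1792 and 1756 of all 14008 tested genes were called with median-of-ratios factors, upper-quartile factors and library totals. Of those calls over all genes 49.8%, 56.3% and 54% were higher, against 42.5% in the main fit. With a filter of 1 CPM in 4 libraries 5 listed genes were higher and 0 lower of 46 tested. In that fit 1802 of all 12680 tested genes were called. STC1 and IGF2BP1, called lower in the main fit, did not pass that filter and were not tested there. With the GC trend removed, 15 of 52 passed, beside 2961 of all 14008 tested genes. In the fit that separates replicates 1 and 2 from 3 and 4, 13 of 52 passed, beside 2886 of all 14008.

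The ligand genes were scarce. IGF1 had 22, 25, 13 and 25 counts in NPY1R high and 16, 13, 9 and 14 in NPY1R low, and did not pass (log2 fold change 0.80, SE 0.33, edgeR adjusted p 0.154). IGF2 had 1 to 6 counts per library, and INS had 1 count in all. IGFBP1, which lies 18584 bases from IGFBP3 on chromosome 7, had at most 1 count in any library. IGFBP7 had at most 5 counts, so neither of these binding proteins was tested.

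STC2, stanniocalcin 2, an inhibitor of the protease PAPPA that cuts IGFBP4, rose from 60.5 ± 2.78 to 120 ± 12.1 CPM (SD, n = 4 each). Its log2 fold change was 0.99 (SE 0.08, edgeR adjusted p 2.77e-05). STC1, stanniocalcin 1, its scarce relative, fell from 16, 17, 21 and 34 counts to 8, 4, 4 and 5, a log2 fold change of -2.01 (SE 0.41, edgeR adjusted p 0.00909). PAPPA was below the filter.

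Among the adaptors, GRB10, which binds the insulin and IGF-I receptors and dampens their signal, rose by a log2 of 0.49 (SE 0.05, edgeR adjusted p 0.000169). In the PI3K group PIK3R1, the p85 alpha regulatory subunit that docks on phosphorylated IRS proteins, had means of 152 ± 1.39 and 95.2 ± 6.13 CPM (SD, n = 4 each) and rose by a log2 of 0.67 (SE 0.05, edgeR adjusted p 3.94e-05). GRB2, which links receptors to SOS and RAS, had a log2 fold change of -0.18 and an edgeR adjusted p of 0.0428. It lost the threshold under every other scaling run, where the adjusted p was 0.0822 to 0.147, and without each library in turn, where it was 0.0512 to 0.244. It was also lost without a filter (0.197), at 1 CPM in 4 libraries (0.0986), in DESeq2 (0.0601) and with a replicate block (0.0671).

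IGF2BP1, which binds IGF2 mRNA, had 9, 13, 7 and 12 counts in NPY1R high and 38, 20, 56 and 33 in NPY1R low, a log2 fold change of -1.79 (SE 0.44, edgeR adjusted p 0.0231). It missed the threshold without NPY1R high replicate 1 (0.0699), replicate 2 (0.0531) or replicate 3 (0.0775), or NPY1R low replicate 3 (0.0515). Of the 10 phosphatases and other brakes 0 passed, where 13.6% of all tested genes did. SOCS3, a feedback inhibitor of cytokine and insulin signalling, came close at 2.80 ± 0.301 and 1.73 ± 0.474 CPM (SD, n = 4 each), without overlap between the groups (log2 fold change 0.69, SE 0.21, edgeR adjusted p 0.0554). Apart from PIK3R1, none of the 19 tested genes of the PI3K and output group passed.

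**Figure D5:**
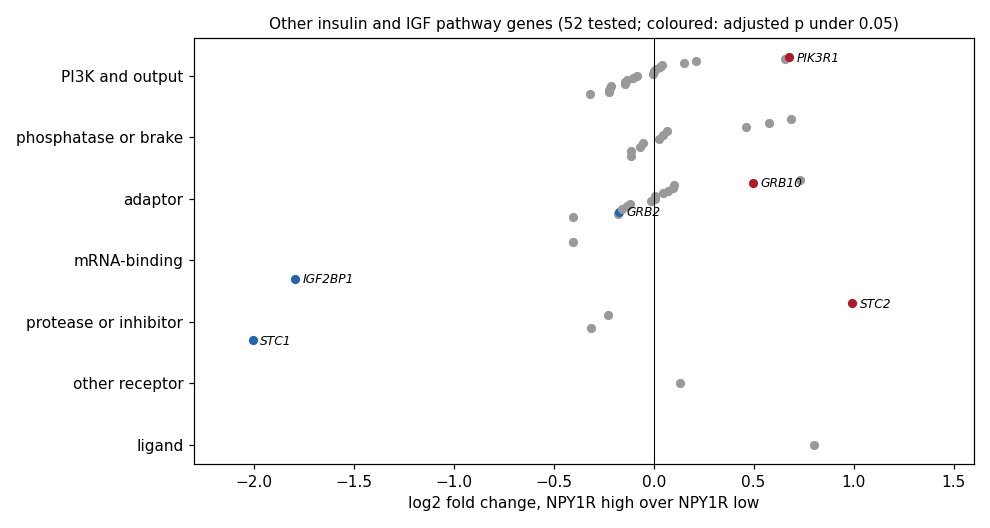
Log2 fold change (horizontal axis, NPY1R high over NPY1R low) of the 52 tested genes of the fixed pathway list by role, with 1 point a gene. Red and blue points are higher and lower in NPY1R high past the threshold, and grey points did not pass. STC2, PIK3R1 and GRB10 stand to the right, and STC1 and IGF2BP1, both of low count, to the left.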

How the data were processed

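Per the submitters' processing notes, the tools were STAR 2.5.2 and RSEM 1.3.0 and the genome build hg38. The annotation is not given in the sources used here. The deposited values are expected counts of reads for each gene symbol with no scaling by depth, and 7.97% to 8.76% of the values of a library, over all 26475 genes, were not exactly whole. Per the labels' protocols, RNA was treated with DNase and libraries came from a stranded kit. The table of the series was used, and its values were exactly those of the sample tables, with no tolerance (0 differed).

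For testing, each expected count was rounded to a whole number. Genes were filtered by filterByExpr (minimum count 10) and scaled by TMM. Groups were compared by edgeR's quasi-likelihood test, with Benjamini-Hochberg adjustment and a threshold of 0.05 (R 4.3.3, edgeR 4.0.16, limma 3.58.1, DESeq2 1.42.0). The SE of an edgeR fit was derived from its test, as the absolute log2 fold change over the square root of F. The 95% intervals use this SE and a t quantile. CPM use TMM-scaled totals, and log2 CPM a prior count of 2. Within-library ratios add 0.5 counts to both genes. Transcript GC content and length came from GENCODE release 29 and covered 94.1% of tested genes. Positions and upstream stretches came from RefSeq (GRCh38.p14) for all 10 members.

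The members, the pathway list of 62 genes, the marker lists and the alternatives were chosen with earlier results of these data known. Named genes are all members, NPY1R, ESR1, PGR, the ligands, IGFBP1, IGFBP7, listed pathway genes past the threshold (up to 6 a direction), and the 3 genes closest to the 2 members of smallest p. Others were named after their values were seen. All 12 pairs of libraries of a group differed beyond counting noise (chi-square 5.75 to 62.2 times its degrees of freedom), which does not show separate cultures. Of the basal epithelial, immune and endothelial markers only 1 of 6, 2 of 4 and 1 of 3 could be tested and 0 were called, where 13.6% of all tested genes were, with summed levels of at most 9.20, 2.77 and 18.2 CPM.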

Additional observations from a re-analysis of the deposited data

Results flagged for a closer look

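In 3 of 28 sets of 4 values for the members and their ratios, 1 library lay apart by Dixon's test at the 95% level. Chance gives about 1.4 such sets. NPY1R high replicate 4 had 125 CPM of IRS1, where the other NPY1R high libraries had 92.0 to 96.5 CPM, a gap of 0.863 of the range. Without that library IRS1 still rose by a log2 of 1.10 (edgeR adjusted p 2.50e-05). NPY1R low replicate 2 had 102 CPM of IGFBP4, below the 109 to 111 CPM of the others, a gap of 0.846 of the range. Without it IGFBP4 rose by 0.54 (edgeR adjusted p 0.000727). NPY1R low replicate 3 had 3068 CPM of IGFBP5, above the 2802 to 2841 CPM of the others, a gap of 0.852 of the range. Without it the rise of IGFBP5 was 0.41 (edgeR adjusted p 0.0424).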

How the results depend on the processing

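Of 397 values under 19 alternatives, 333 had the same direction and call as reported, or stayed within 1.5 times for a count. IRS1 and IGFBP4 were called in all 19, IGF1R and IGFBP5 in 16 and IGFBP3 in 14. The 5 called members remained 5 under every alternative but limma-voom (4) and leaving out libraries, where 2 to 5 were called: 3 without NPY1R high replicate 1, 2 without NPY1R high replicate 2, 3 without NPY1R low replicate 1, 3 without NPY1R low replicate 2 and 4 without NPY1R low replicate 3. All calls rose from 1904 to 2886 with the term for replicates 1 and 2 against 3 and 4, 2961 with the GC offset and 3323 with the GC offset and replicate block, and ranged from 1351 to 2132 with a library left out. Pathway calls moved from 6 to 13, 15 and 19 in the same fits, and ranged from 4 to 8 with a library left out. The causes were not tested.

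Values close to 0 changed sign. INSR was -0.00082 in limma-voom, -0.0011 with the replicate block, -0.0088 with the GC offset and -0.011 with both, and -0.037 to 0.097 with a library left out. IGFBP2 was 0.019 with median-of-ratios factors, 0.049 with upper-quartile factors, 0.035 with library totals, 0.031 without a filter, 0.033 at 1 CPM in 4 libraries, 0.020 in DESeq2, 0.045 in limma-voom, 0.049 with the replicate block, 0.037 with the term for replicates 1 and 2 against 3 and 4, 0.058 with the GC offset and 0.058 with both, and -0.17 to 0.17 with a library left out. IRS2 ranged from -0.024 to 0.39 with a library left out.

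The replicate numbers are not known to pair the libraries. Deviations of same-numbered libraries correlated at 0.339, 0.157, 0.0907 and 0.0178. For NPY1R high replicates 1, 2, 3 and 4 the NPY1R low library that correlated best was replicate 2, 2, 4 and 3. With the replicate block, 1833 genes, 5 members and 6 pathway genes (4 higher and 2 lower, GRB2 not among them) were called. IGFBP6 without a filter had a log2 fold change of 0.69 (SE 0.80, edgeR adjusted p 0.680). Counts as low as those of IRS2, IGFBP6 and the ligands limit what can be seen.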
